A study of Mus musculus with 6 samples.

Results

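Described here are 10 mouse genes for proteins that are secreted or laid down in matrix: Saa3, Slpi, Lcn2, Prtn3, Prg4, Pf4, Fn1, Ecm1, Vcan and Emilin1. They are 10 of the 55538 features in a table of unique molecular identifier (UMI) counts from single peritoneal cells, of which 24015 had a UMI. They were chosen by their measured counts and shares of cells in these data, across peritoneal macrophages split by Gata6, Tnf and Irf4 and against B cells, as genes of large peritoneal macrophages (LPMs), so their differences between the cell classes below are a description and were not tested. Resident peritoneal cells came from C57BL/6 mice (C57BL/6J in the study's methods), either MerTK +/+ (wild type) or MerKD mice, which lack the engulfment receptor MerTK and had been backcrossed for 10 generations. Each genotype gave 1 library of control cells with a media change, 1 library after 2 h and 1 library after 6 h with apoptotic cells (ACs), at 5 ACs per peritoneal cell. The ACs were UV-treated GFP-Jurkat cells, a human T cell line, and reads on human genes were not used for the table. In all 6 libraries the cells had been lavaged from mice aged 8 to 12 weeks, pooled from 3 mice, plated for 1 h and rinsed, so that cells which did not adhere were depleted. The number from 1 to 6 that ends each barcode could not be tied to a genotype or a time, so values are given over the pool of libraries and by library number, and no effect of MerTK or of ACs is reported.

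Macrophages in the peritoneal cavity are of at least a pair of kinds. LPMs carry the transcription factor GATA6 and are long-lived residents, whereas small peritoneal macrophages (SPMs) carry IRF4 and MHC class II and are replenished from monocytes. Secreted macrophage proteins reach the peritoneal fluid and the matrix beneath the mesothelium, where they act in host defence, in the control of proteases, in clotting and in repair.

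Cells were gated by their UMIs. A macrophage had at least 2 UMIs of Csf1r, Adgre1 and Fcer1g together, at most 2 of Cd79a and Cd79b and at most 1 of Cd3d, Cd3e and Nkg7, which gave 2773 cells with a median of 4426 UMIs. Of these, 657 had at least 1 Gata6 UMI, 260 at least 2 Tnf UMIs and 277 at least 1 Irf4 UMI, while 1675 met none of these gates and 95 met several. B cells, with at least 4 UMIs of Cd79a and Cd79b, numbered 3101 with a median of 5561 UMIs and served as the level of RNA that does not come from the cell itself. Levels are UMIs of a gene per 1000000 UMIs (CPM) summed over the cells of a class, with exact Poisson 95% intervals, and shares of cells have exact binomial 95% intervals. Both cover counting error only. A library is 1 pool of mice and cells are not replicates, so no p-value is given.

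The gates were set against markers. Of 12 LPM markers, 10 were seen in at least 10% of Gata6 ≥1 cells, 8 in Gata6 0 cells and 5 in Irf4 ≥1 cells, whereas of 12 SPM markers 4 were seen in Gata6 ≥1 cells and 8 in Irf4 ≥1 cells. The LPM list holds Gata6 itself and Adgre1, a gene of the macrophage gate, and the SPM list holds Irf4. Part of this contrast was thus fixed by the gates, and Gata6 ≥1 cells were also deeper than Gata6 0 cells. Gata6 ≥1 cells carried most of the LPM markers, but the 8 LPM markers in Gata6 0 cells show that the gate did not hold all cells with such markers. Sources known for some of these proteins outside macrophages were also looked for. In macrophages, 8 of 10 mesothelial and 6 of 8 fibroblast markers were at 0 UMIs, and the summed lists came to 0.145 and 0.218 CPM. Of 12 neutrophil markers 6 were at 0, and of 10 platelet markers 5, and the summed lists came to 74.0 and 13.5 CPM. Those at 0 were the neutrophil genes Ly6g, Ngp, Ltf, Elane, Mpo and Ctsg, and among the platelet genes Gp9, Gp1bb, Gp1ba and Tubb1. The neutrophil gene Csf3r was seen in 18.8% and S100a8 in 7.50% of macrophages. Summed over 12 neutrophil markers, Gata6 ≥1 cells had 95.5 CPM (32.5 to 136 by library) and Irf4 ≥1 cells 32.5 (0 to 72.6), and the part of these in the levels of Prtn3 and Lcn2 was not tested. Summed over 10 platelet markers, the same classes had 10.4 and 19.2 CPM. Summed over 8 mast cell markers, Gata6 ≥1 cells had 114.9 CPM, Gata6 0 cells 56.5, Irf4 ≥1 cells 19.2 and Irf4 0 cells 79.2. Nearly all of this was Hdc (114.7 CPM in Gata6 ≥1 cells), with Cpa3, Fcer1a and Ms4a2 at 0 in macrophages. Summed over 7 monocyte markers, Irf4 ≥1 cells had 134.5 CPM and Irf4 0 cells 75.4. Gata6 ≥1 cells were at 50.3 and Gata6 0 cells at 93.7, and the part of these in the members' levels was not tested. The macrophage gate did not exclude dendritic cells, which the study also describes, and no list of their markers was read. Their share among Irf4 ≥1 cells was thus not tested. Depth was from 4234786 to 10287079 UMIs per library, 28 barcode sequences occurred in more than 1 library, and macrophages had a median of 2861 UMIs in library 6 and 6246.5 in library 1. The 10 members together took 3.77% of macrophage UMIs, 4.78% in Gata6 ≥1, 1.28% in Irf4 ≥1 and 0.0754% in B cells.

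The bases before the gene start are shown for 4 members that carried a motif in a window mostly free of annotated exons. They are from RefSeq on GRCm38.p6, in the 5′ to 3′ sense of the gene, and capitals mark motif matches. The printed windows are chr7:46715701-46715926 (minus strand) for Saa3, where the 24 bases next to the RefSeq start lie in an annotated exon and are left out, chr2:164356508-164356757 (minus strand) for Slpi, whose RefSeq start lies inside the GENCODE gene where 1 of 3 GENCODE transcripts holds the bases after it, chr5:90772185-90772434 (plus strand) for Pf4 and chr3:95739570-95739819 (minus strand) for Ecm1.
Saa3: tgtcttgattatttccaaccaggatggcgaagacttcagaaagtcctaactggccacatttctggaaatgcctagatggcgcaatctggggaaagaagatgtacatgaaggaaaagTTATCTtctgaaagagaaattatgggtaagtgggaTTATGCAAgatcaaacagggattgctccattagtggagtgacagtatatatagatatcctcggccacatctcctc
Slpi: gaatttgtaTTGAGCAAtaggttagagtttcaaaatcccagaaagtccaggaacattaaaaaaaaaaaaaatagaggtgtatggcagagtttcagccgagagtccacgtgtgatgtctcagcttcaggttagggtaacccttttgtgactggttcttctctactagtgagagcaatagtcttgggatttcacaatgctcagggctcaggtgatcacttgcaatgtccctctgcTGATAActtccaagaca
Pf4: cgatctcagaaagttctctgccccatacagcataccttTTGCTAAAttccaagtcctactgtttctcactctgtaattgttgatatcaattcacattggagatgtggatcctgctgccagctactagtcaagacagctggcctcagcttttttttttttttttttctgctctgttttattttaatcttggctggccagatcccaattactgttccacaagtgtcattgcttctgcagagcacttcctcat
Ecm1: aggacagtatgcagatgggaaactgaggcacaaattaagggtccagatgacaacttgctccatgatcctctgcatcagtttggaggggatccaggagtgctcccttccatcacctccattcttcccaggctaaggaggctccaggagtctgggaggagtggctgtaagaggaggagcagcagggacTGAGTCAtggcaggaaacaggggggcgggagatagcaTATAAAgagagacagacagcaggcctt

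Motifs were sought in the 250 bases before the RefSeq start of the 8 members in the table, which does not hold Prg4 or Fn1, and in 32841 promoters of the same length. TTGCNNAA, read on both strands and known as a C/EBP motif, was found in 4 of 8 members against 9.57% of all promoters. It lay 99 to 92 bases before the start of Saa3, 241 to 234 before Slpi, 212 to 205 before Pf4 and 216 to 209 before Lcn2. The windows of Lcn2, Prtn3 and Emilin1 held 197, 53 and 250 bases of annotated exons, so the Lcn2 match is in a window of mostly exon sequence. A GATA motif, AGATAA or TGATAA on either strand, was found in Saa3 (134 to 129 bases before the start) and Slpi (17 to 12), that is in 2 of 8 members against 16.6% of all promoters. Ecm1 held TGANTCA, an AP-1 motif on either strand, 64 to 58 bases before the start (6.75% of all promoters) and TATAAA on the gene's strand 27 to 22 bases before it (7.59%). The NF-κB motif was found in 0 of 8 members against 7.25% of all promoters. A match is a run of letters and not a measured binding site.

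Among proteins of the acute phase and of antimicrobial defence, Saa3 (serum amyloid A3, made by macrophages in inflammation; chromosome 7, 46711998 to 46715700 on GRCm38, GENCODE vM21) was present at 9355 CPM (9304 to 9406) in macrophages. Its level was 12298 CPM in Gata6 ≥1, 11757 in Tnf ≥2, 8571 in ungated, 1870 in Irf4 ≥1 macrophages and 186 in B cells. In the 6 libraries in order, Gata6 ≥1 cells had 17564, 16766, 7756, 6250, 7610 and 3548 CPM, and Irf4 ≥1 cells had 4428, 2505, 1155, 2673, 638 and 586. Libraries 1 and 2 were high in Gata6 ≥1 cells and libraries 1, 4 and 2 in Irf4 ≥1 cells, library 6 was lowest in both, and the ranges of the classes overlapped between libraries although Irf4 ≥1 cells were lower within each. At 1500 UMIs per cell, Saa3 was found in 92.6% of Gata6 ≥1 cells (90.4 to 94.5%), 29.7% of Irf4 ≥1 cells (24.3 to 35.6%) and 2.87% of B cells (2.31 to 3.53%). Before thinning these shares were 96.0, 32.9 and 5.45%, at medians of 5542, 4182 and 5561 UMIs.

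Slpi, secretory leukocyte protease inhibitor, blocks neutrophil elastase and has antibacterial activity (chromosome 2, 164354070 to 164389095). Its level was 18305 CPM in Gata6 ≥1, 21258 in Tnf ≥2, 13003 in ungated and 4258 in Irf4 ≥1 macrophages, and 303 in B cells. By library, Gata6 ≥1 cells had 22535, 22618, 32206, 9708, 10920 and 9604 CPM, and Irf4 ≥1 cells had 7654, 9432, 3587, 3480, 1681 and 2353. In Gata6 ≥1 cells library 3 was thus the highest for Slpi, where it was not for Saa3, and library 6 was the lowest. At 1500 UMIs, Slpi was found in 82.8% of Gata6 ≥1, 27.9% of Irf4 ≥1 and 2.61% of B cells, and before thinning in 87.1, 31.0 and 5.74%.

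Prtn3 encodes proteinase 3, a serine protease of neutrophil granules, and Lcn2 encodes lipocalin 2, which binds bacterial iron carriers. Prtn3 (chromosome 10, 79874476 to 79883174) was sparse, with 318 UMIs in 222 macrophages, of which 165 cells had a single UMI. It was at 38.6 CPM (32.8 to 45.3) in Gata6 ≥1 and 5.17 (2.08 to 10.7) in Irf4 ≥1 cells, and at 0.597 CPM in B cells. Gata6 ≥1 cells had 59.3, 57.4, 28.6, 13.7 and 18.0 CPM in libraries 1 to 5 and no UMI in library 6, where a count of 0 allows up to 13.9 CPM. Without library 1 the pooled level was 25.3 CPM in Gata6 ≥1 and 2.72 in Irf4 ≥1 cells, the latter from 3 UMIs. The granule genes Elane, Mpo and Ctsg that neutrophil precursors make together with Prtn3 were at 0 UMIs in macrophages. Lcn2 (chromosome 2, 32384633 to 32388252) had 46 UMIs in 29 of 2773 macrophages, 9 of them in 1 cell. It had 0 UMIs in Irf4 ≥1 cells, which allows up to 2.22 CPM, and 0 in B cells, so it was too rare for any comparison.

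Prg4 and Pf4 encode proteins that act at surfaces and on cells in the fluid. Prg4 (chromosome 1, 150449412 to 150466165) encodes lubricin, a mucin-like lubricant known from joints, and overlaps Tpr on the opposite strand. Its level was 1780 CPM in Gata6 ≥1, 1637 in Tnf ≥2, 1253 in ungated and 416 in Irf4 ≥1 macrophages, and 27.0 in B cells. By library, Gata6 ≥1 cells had 2258, 1781, 1613, 1476, 1194 and 965 CPM, and Irf4 ≥1 cells 540, 321, 296, 918, 156 and 262. Irf4 ≥1 cells were lower than Gata6 ≥1 cells within each library, in a gene chosen by these splits. At 1500 UMIs, Prg4 was found in 83.6% of Gata6 ≥1, 26.8% of Irf4 ≥1 and 1.796% of B cells, and before thinning in 96.2, 36.5 and 3.45%.

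Pf4, platelet factor 4 or CXCL4, is a heparin-binding chemokine best known from platelets (chromosome 5, 90772435 to 90773383). It was at 3194 CPM in Gata6 ≥1, 2835 in Tnf ≥2, 2568 in ungated and 1107 in Irf4 ≥1 macrophages, and 49.3 in B cells. Gata6 ≥1 cells had 2337, 2141, 4554, 4511, 3998 and 3140 CPM by library, so that libraries 1 and 2, the highest for Saa3, were the lowest for Pf4. Irf4 ≥1 cells had 1359, 911, 658, 2313, 747 and 839 CPM, and library 4 of these cells lay above the lowest Gata6 ≥1 library. Ppbp, another platelet chemokine, was seen in 0.938% of macrophages, whereas Pf4 was found in 77.2% of Gata6 ≥1, 33.8% of Irf4 ≥1 and 1.63% of B cells at 1500 UMIs, and before thinning in 87.5, 39.4 and 2.68%.

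Fn1 encodes fibronectin, an adhesive glycoprotein of plasma and matrix (chromosome 1, 71585520 to 71653200). It was at 11356 CPM in Gata6 ≥1, 8881 in Tnf ≥2, 8706 in ungated and 4779 in Irf4 ≥1 macrophages, and 170 in B cells. Gata6 ≥1 cells had 12228, 12459, 9258, 10825, 10357 and 9006 CPM by library, a spread of 1.38-fold, and Irf4 ≥1 cells had 5121, 3644, 3825, 7193, 3845 and 4585. Irf4 ≥1 cells were lower within each library, but Fn1 was still found in 88.8% of them (84.5 to 92.3%) at 1500 UMIs, against 99.4% of Gata6 ≥1 and 4.28% of B cells. Before thinning it was found in 94.6% of Irf4 ≥1 and 7.71% of B cells.

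Ecm1 encodes extracellular matrix protein 1, which binds matrix proteins and proteases (chromosome 3, 95734147 to 95739569). It was at 684 CPM in Gata6 ≥1, 661 in Tnf ≥2, 540 in ungated and 376 in Irf4 ≥1 macrophages, and 15.6 in B cells. Gata6 ≥1 cells had 868, 754, 698, 499, 475 and 357 CPM by library and Irf4 ≥1 cells 371, 331, 466, 507, 234 and 279, so the classes overlapped. At 1500 UMIs, Ecm1 was found in 56.8% of Gata6 ≥1, 34.6% of Irf4 ≥1 and 1.37% of B cells, and before thinning in 85.2, 61.0 and 4.03%. T and NK cells had more Ecm1 than B cells in each library, at 177 CPM (49.5 to 272 by library, on few UMIs in libraries 5 and 6). Ecm1 was found in 14.2% of T and NK cells at 1500 UMIs (11.3 to 17.6%), and its source there was not tested. Vcan encodes versican, a large chondroitin sulfate proteoglycan known from monocytes (chromosome 13, 89655312 to 89742509), and Emilin1 an elastic fibre glycoprotein (chromosome 5, 30913402 to 30921277). Vcan had 413 UMIs in 264 macrophages, with 42.7 CPM (36.5 to 49.6) in Gata6 ≥1 and 18.5 (11.96 to 27.3) in Irf4 ≥1 cells. Emilin1 had 769 UMIs in 521 macrophages, with 83.3 CPM (74.6 to 92.8) in Gata6 ≥1 and 17.0 (10.8 to 25.5) in Irf4 ≥1 cells, and in libraries 3, 4 and 5 no Irf4 ≥1 cell had an Emilin1 UMI, which allows up to 9.26, 15.2 and 46.7 CPM. Without library 1, which held 12 of the 23 Emilin1 UMIs of Irf4 ≥1 cells, their level was 9.96 CPM.

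**Figure D1:**
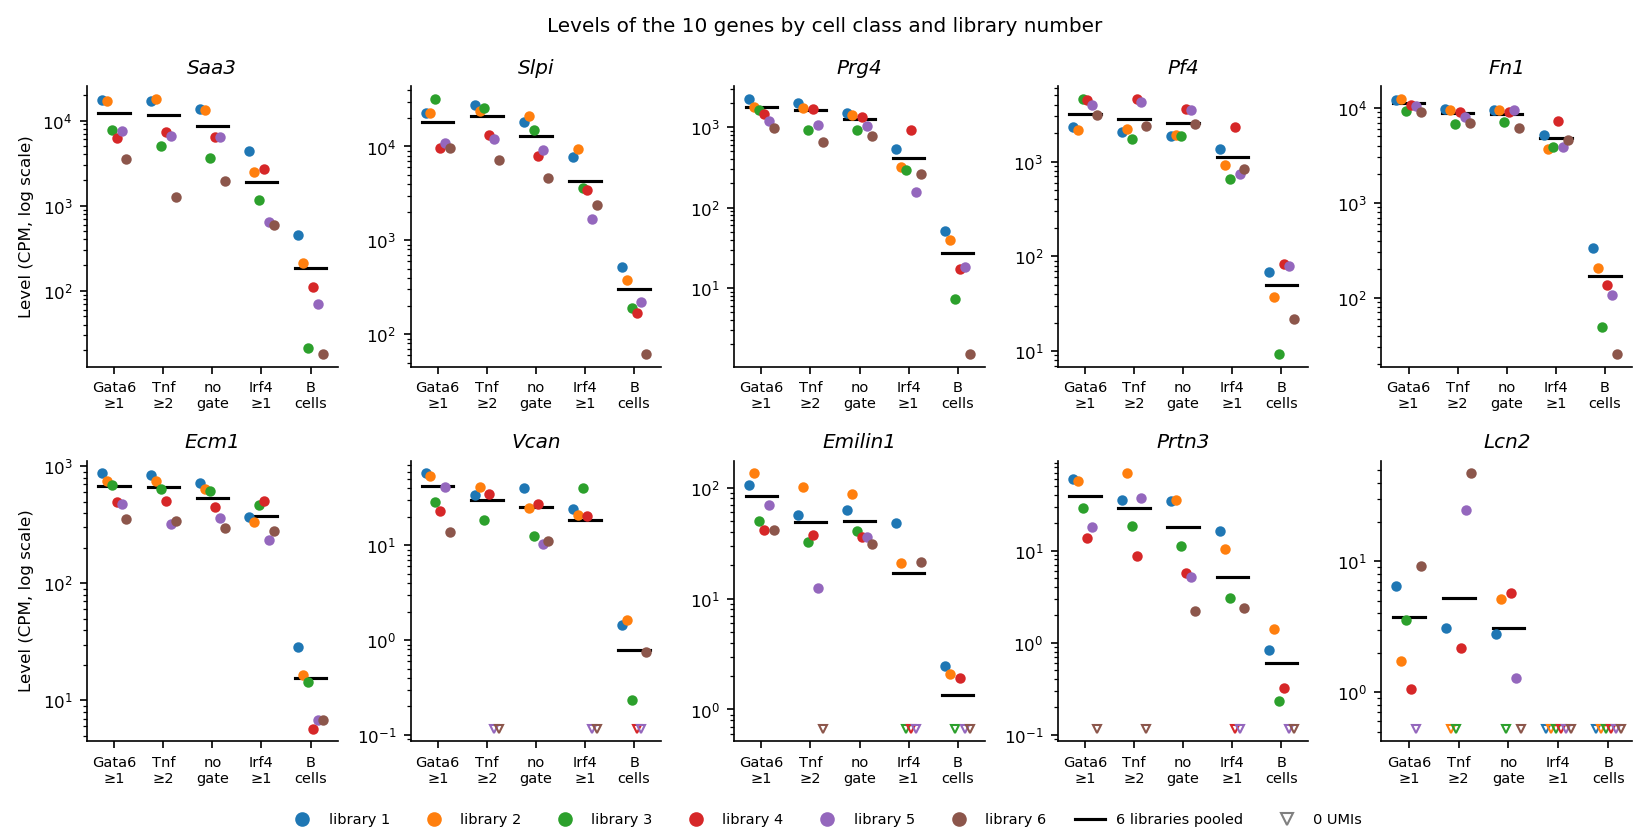
Level of each of the 10 genes (CPM, log axis, a separate scale per gene) in Gata6 ≥1, Tnf ≥2, ungated and Irf4 ≥1 macrophages and in B cells. Points are the 6 libraries by number, bars the pooled level, and open triangles libraries with 0 UMIs. B cells lie lowest in the 9 genes they have a UMI of, and Saa3 spreads from 3548 to 17564 CPM over the libraries of Gata6 ≥1 cells.

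The level in B cells was used to see how far the members could come from RNA outside the cell. A 2-fold difference among genes with at least 50 UMIs is counted here and below, a filter that 9 of the 10 members passed and Lcn2 did not. The rule that chose the members used this and the 3 comparisons that follow, so nothing is read from their counts. All 9 were higher in macrophages than in B cells, beside 19.2% of 12131 genes (47.6% in either direction). Their log2 ratios were between 5.20 (Ecm1) and 5.75 (Fn1). B cells carried 1.86 to 2.71% of the macrophage level of the 6 members with at least 50 B cell UMIs. These percentages were not one ratio within a library. In library 3 the level in B cells was 0.512% of that in macrophages for Saa3, 1.10% for Slpi and 2.39% for Ecm1. With called doublets left out, the log2 ratio was 6.83 in place of 5.65 for Saa3 and 6.84 in place of 5.27 for Prtn3, and with the gates read at 1500 UMIs it was 7.81 for Saa3. Of B cells at 1500 UMIs, 95.3% had none of Saa3, Slpi, Prg4 and Pf4, 2.74% had 1 of these genes and 0.881% had all 4. In T and NK cells Saa3 was at 1462 CPM and was found in 6.50% of cells at 1500 UMIs (4.49 to 9.06%), but 1900 of its 2599 UMIs were in library 1. Without library 1, a setting chosen after seeing the data, T and NK cells had 523 CPM and a share of 3.89% (2.19 to 6.33%), and B cells 100.1 CPM and 2.04% (1.505 to 2.69%). The intervals of these shares overlapped, which does not show equal levels, and over all 6 libraries the intervals of T and NK cells and B cells did not overlap.

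Gata6 ≥1 cells were compared with Gata6 0 macrophages. Prtn3 was 2.30-fold higher (log2 1.20, 0.87 to 1.53) and was 1 of 9 members with a 2-fold difference, all genes having 0.66% higher and 3.83% lower among 9400 (4.49% in either direction). The other 8 compared members were higher by less, from 0.37 (Ecm1) to 0.90 (Emilin1) on the log2 scale, with 0.59 for Saa3, 0.49 for Slpi, 0.58 for Prg4, 0.40 for Pf4 and 0.47 for Fn1. The median of the 9 was 0.58 where that of all compared genes was -0.05. Saa3, Slpi, Prg4, Pf4, Fn1, Ecm1 and Emilin1 were higher in 6 of 6 libraries, though for Saa3 library 4 gave only 0.0038, and Vcan in 5. In libraries 3 and 6 the ratio was 1.27 and 1.20 for Saa3 and 1.23 and 1.28 for Slpi. The median over libraries was 0.37 for Saa3 and 0.28 for Slpi, so the pooled ratios mix levels of libraries. Prtn3 was higher in 5 libraries and had no UMI in the Gata6 ≥1 cells of library 6. Its ratio was below 2-fold in libraries 1 (0.95) and 2 (0.55), which held 178 and 81 of its 318 macrophage UMIs. In libraries 3 to 5 it was from 1.26 to 2.03. Without library 4, 3 members passed 2-fold: Prtn3 (1.18), Vcan (1.02) and Emilin1 (1.01).

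The Gata6 gate depends on depth, since Gata6 ≥1 cells had a median of 5542 UMIs and Gata6 0 cells of 4134.5. With all gates read after thinning each cell to 1500 UMIs, 2003 macrophages were left, of which 197 were Gata6 ≥1. There the log2 ratio was 0.18 for Saa3, 0.00033 for Slpi and 0.065 for Pf4, while Prg4 and Fn1 were at 0.40 each and Prtn3 at 1.03. The differences of Saa3, Slpi and Pf4 were thus small in that setting. It changes the macrophage gate too, and cells whose Gata6 UMIs are lost in thinning count as Gata6 0, so these parts cannot be told apart. Of Gata6 ≥1 cells, 430 had exactly 1 UMI and 227 had 2 or more, and the members differed little between them (Saa3 12264.5 and 12351 CPM, Slpi 19076 and 17083, Prtn3 35.0 and 44.3), whereas cells with 0 had 8168 CPM of Saa3 and 16.8 of Prtn3.

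Tnf ≥2 cells, the macrophages with transcripts of the inflammatory cytokine TNF, differed less. None of the 9 compared members (0) had a 2-fold difference from other macrophages, beside 1.1% of all genes higher and 6.3% lower (7.39% in either direction). Slpi was 1.56-fold higher (log2 0.65, 0.63 to 0.66) and in 6 of 6 libraries, from 0.18 to 0.69. Saa3 was at 0.38, but at -0.56 in library 6, and Fn1 at -0.04. Among Gata6 ≥1 cells alone, the Slpi ratio was 0.27. Cells with exactly 2 Tnf UMIs numbered 85 and had 18794 CPM of Slpi, those with exactly 1 numbered 314 and had 16637, and those with 0 had 13073. Tnf ≥2 cells were also deeper, with a median of 6297.5 UMIs against 4304 in other macrophages. With all gates read at 1500 UMIs, 68 Tnf ≥2 cells were left. Ecm1 was then at -0.08 in place of 0.24, Prtn3 at -0.60 in place of 0.37 and Vcan at 0.76 in place of -0.004. The other compared members kept their sign.

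Irf4 ≥1 cells had less of the members. Of 9 compared, 7 were at least 2-fold lower than in Irf4 0 macrophages and 0 higher, beside 7.03% of all genes lower and 6.49% higher (13.5% in either direction), and the median was -1.81 against 0.04 for all compared genes. Saa3 had the log2 ratio furthest from 0 at -2.44 (-2.50 to -2.39), followed by Prtn3 at -2.27 (-3.60 to -1.21), Slpi at -1.88, Emilin1 at -1.82, Prg4 at -1.81, Pf4 at -1.34 and Fn1 at -1.005. Ecm1 at -0.66 and Vcan at -0.76 did not pass 2-fold, but of 25 Vcan UMIs in Irf4 ≥1 cells 13 were in 2 cells of library 3, and without that library Vcan was at -1.48. Saa3, Slpi, Prg4, Pf4 and Fn1 were lower in 6 of 6 libraries, with Saa3 between -1.27 in library 4 and -3.40 in library 5, and Fn1 between -0.41 and -1.51. Fn1 lay at the threshold, from -0.94 without library 3 to -1.13 without library 4, so that without library 3 Vcan passed and Fn1 did not. Ecm1 was higher in library 4 (0.12), Vcan in library 3 (1.24, on few UMIs) and Prtn3 in library 6 (0.42, on 1 UMI in Irf4 ≥1 cells).

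Libraries 3 and 6 held more Irf4 ≥1 cells, 20.9% and 23.4% of their macrophages against 4.57 to 5.71% in the others, so the pooled ratio mixes levels of libraries. The median over libraries was -2.05 for Saa3 and -1.43 for Slpi. Irf4 ≥1 cells also carried more B cell RNA, 147 CPM summed over 8 B cell markers (46.7 to 278 by library) against 17.1 (8.50 to 38.8), and 6.86% of them had a Cd79a or Cd79b UMI against 1.56%. Without macrophages that had any UMI of the B or T cell gate genes, a setting chosen after seeing the data, 7 of 9 members were still lower and Saa3 was at -2.55. With all gates read at 1500 UMIs, Saa3 was at -2.77, Slpi at -1.70 and Fn1 at -1.03. Cells with more Irf4 had less of the members: 134 cells with exactly 1 Irf4 UMI had 2713 CPM of Saa3, 1712 of Pf4 and 6061 of Fn1, and 143 cells with 2 or more had 1147, 587 and 3679.

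**Figure D2:**
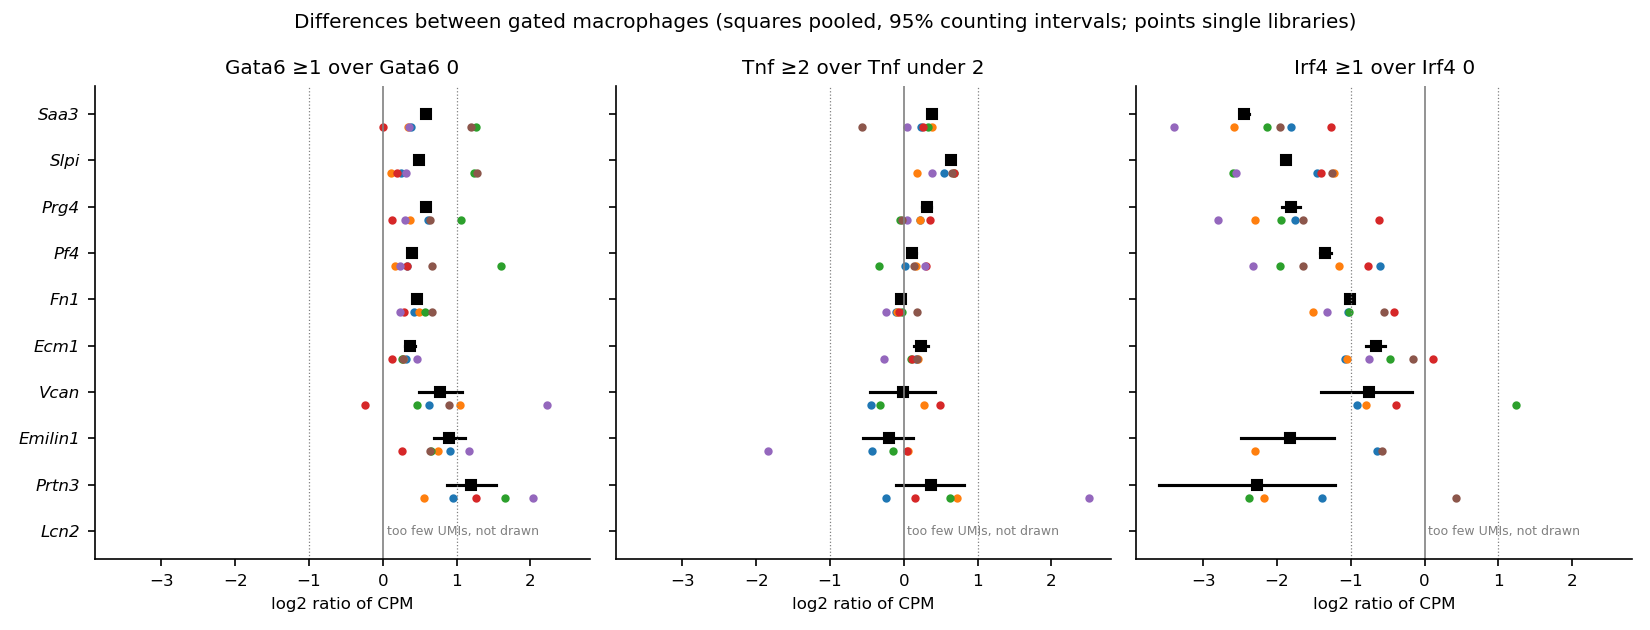
Log2 ratio of CPM for 9 genes, without Lcn2, between macrophages inside and outside the Gata6, Tnf and Irf4 gates. Squares are pooled ratios with 95% counting intervals, coloured points single libraries where both sides had a UMI (library colours as in the plot of levels), and dotted lines mark 2-fold. Pooled ratios lie right of 0 for the Gata6 gate, between -0.20 and 0.65 for the Tnf gate and left of 0 for the Irf4 gate, down to -2.44 for Saa3.

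The few Irf4 ≥1 cells with a Gata6 UMI differed from the rest. These 22 cells had 5107 CPM of Saa3 (4756 to 5477) and 15438 of Slpi (14822 to 16072), where the 255 Irf4 ≥1 cells without Gata6 had 1456 and 2827. Emilin1 was at 91.2 CPM in the former and 7.50 in the latter, and Fn1 at 6872 and 4511. Macrophages that met several gates were deeper, with a median of 6946 UMIs against 3930 in those that met the Irf4 gate only. The part of depth and of barcodes that hold several cells in these differences was not tested. Within Gata6 0 macrophages alone, the ratio of Irf4 ≥1 to Irf4 0 cells was -2.64 for Saa3 and -2.35 for Slpi.

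**Figure D3:**
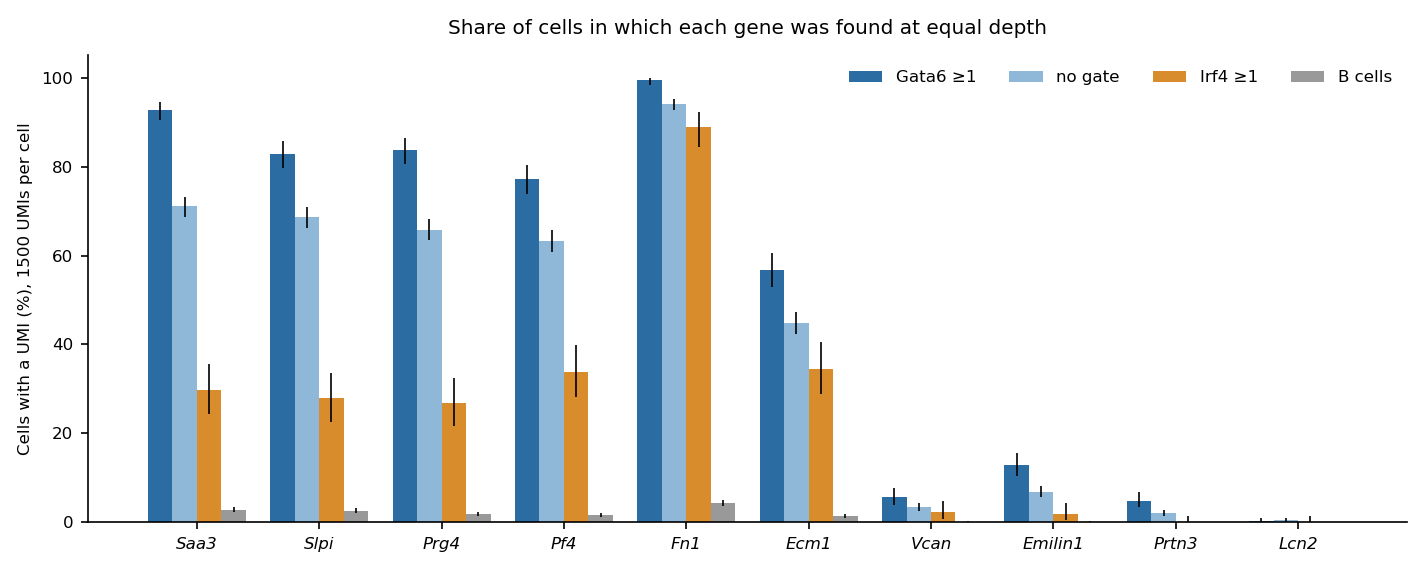
Share of cells (percent, with exact binomial 95% intervals) in which each gene had a UMI after thinning every cell to 1500 UMIs, in Gata6 ≥1, ungated and Irf4 ≥1 macrophages and in B cells. Saa3, Slpi, Prg4 and Pf4 lie between 77.2 and 92.6% in Gata6 ≥1 cells and between 26.8 and 33.8% in Irf4 ≥1 cells, while Fn1 is at 88.8% in the latter.

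How the lower level in Irf4 ≥1 cells was spread over cells differed between members. Fn1 was lower in the typical cell, with a median per cell of 10807 CPM in Gata6 ≥1 and 3616 in Irf4 ≥1 cells. Saa3, Slpi, Prg4 and Pf4 each had a median of 0 in Irf4 ≥1 cells, and the 10% of these cells with most of a gene held 75.7% of the Saa3 UMIs, 78.6% of Slpi, 58.7% of Prg4 and 59.0% of Pf4, against 31.1% of Fn1. In Gata6 ≥1 cells the same shares were 34.3% for Saa3, 40.9% for Slpi, 29.2% for Prg4, 37.2% for Pf4 and 21.0% for Fn1. Slpi varied widely even there, with 0 UMIs in at least 10% of cells.

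Saa3, Slpi, Prg4 and Pf4 were found in the same Irf4 ≥1 cells more often than the product of their shares within a library gives. At 1500 UMIs, Saa3 and Prg4 were found together in 57 cells where the product gives 23.3, a ratio of 2.45, and the 6 pairs of these genes had ratios from 2.16 to 2.45, above 1 in 6 of 6 libraries each. Pairs of Fn1 with these 4 genes were between 1.05 and 1.10, near the limit that its high share allows. Of Irf4 ≥1 cells, 55.4% (49.2 to 61.4%) had none of the 4 genes and 12.6% (8.91 to 17.2%) had all 4. Gata6 ≥1 cells had none in 0.459% and all 4 in 51.6%, and among them the 6 pairs had ratios from 1.00 to 1.02. The high shares of the 4 genes there leave such ratios little room above 1, so they cannot be set beside those of Irf4 ≥1 cells. Cells of a library are not replicates, so these ratios carry no test.

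**Figure D4:**
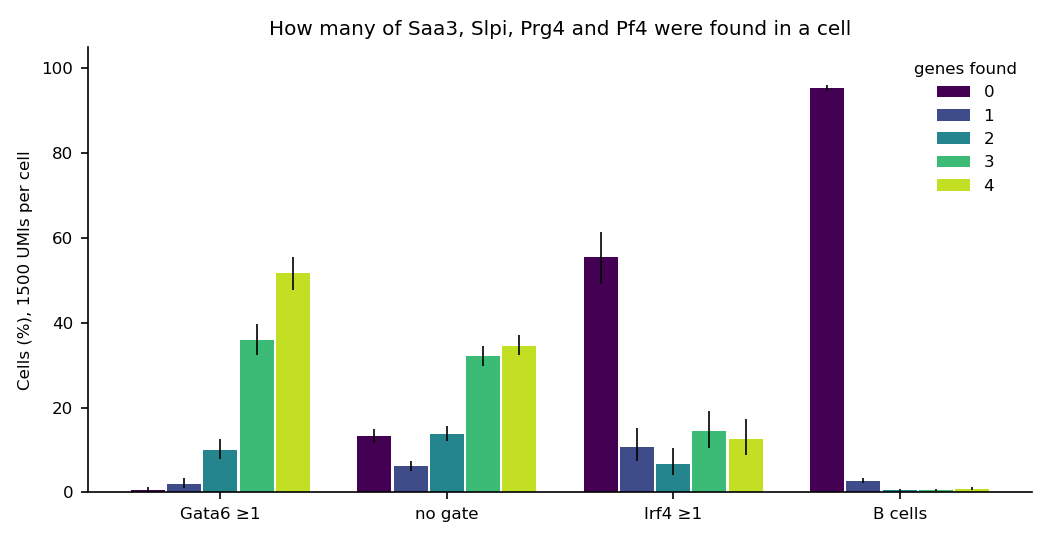
Percent of cells, with exact binomial 95% intervals, in which 0 to 4 of the genes Saa3, Slpi, Prg4 and Pf4 had a UMI at 1500 UMIs per cell. Gata6 ≥1 cells mostly had 3 or 4 (36.0 and 51.6%), B cells none (95.3%), and Irf4 ≥1 cells were mostly at none (55.4%), with more cells at 3 and 4 (14.5 and 12.6%) than at 2 (6.69%).

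Libraries differed by member in cells of one gate. Among Gata6 ≥1 cells, the highest over the lowest library was 4.95-fold for Saa3, 3.35 for Slpi, 2.34 for Prg4, 2.13 for Pf4, 2.43 for Ecm1 and 1.38 for Fn1. Saa3, Prg4, Ecm1, Vcan and Prtn3 were highest in library 1, Fn1 and Emilin1 in library 2, Slpi in library 3, and library 6 was lowest for Saa3, Slpi, Prg4, Fn1, Ecm1, Vcan and Prtn3. Pf4 ran the other way, with its lowest value in library 2 (2141) and its highest in library 3 (4554). Libraries 4 and 5 lay close to each other for Fn1 (10825 and 10357 CPM) and Ecm1 (499 and 475). With 1 library a condition and unknown numbers, pool of mice, genotype, time with ACs, depth and library cannot be told apart.

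**Figure D5:**
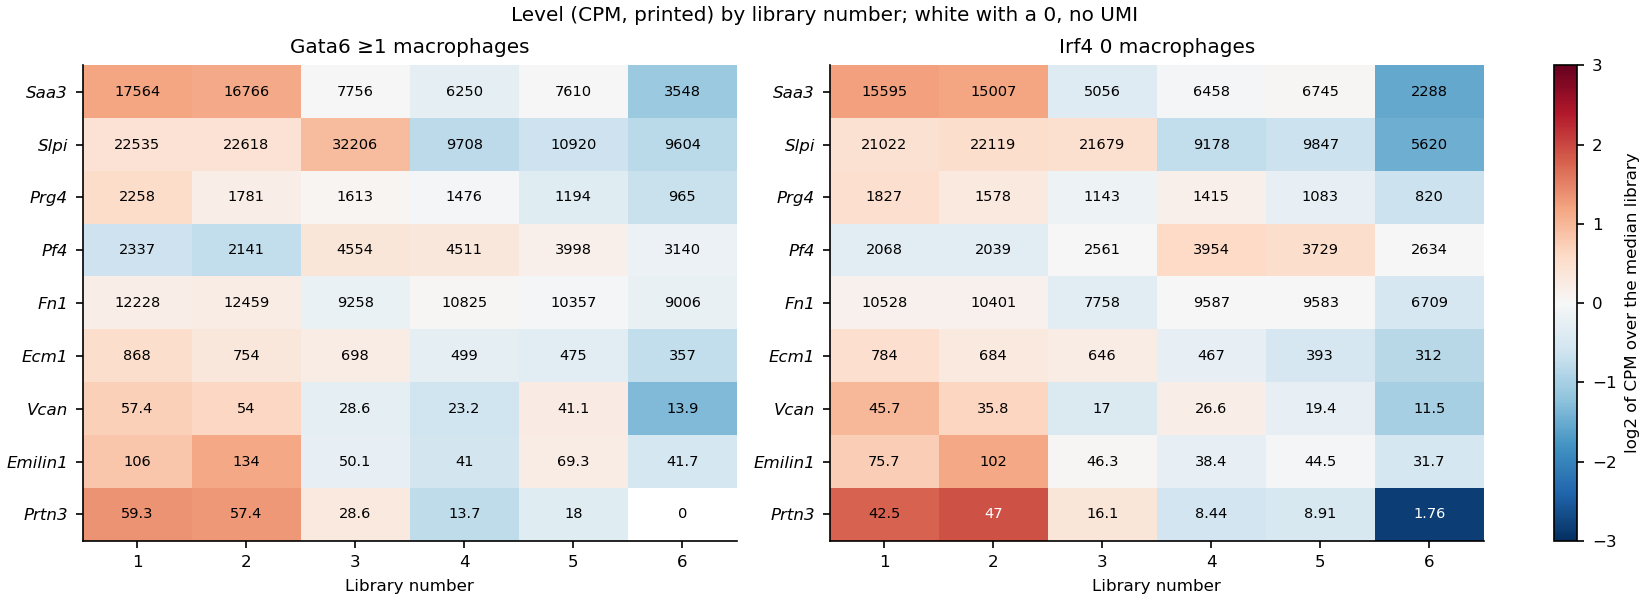
Level of 9 genes by library number in Gata6 ≥1 and in Irf4 0 macrophages. Numbers are CPM and colour is log2 of the level over the median library of that gene. Libraries 1 and 2 are red for Saa3 and Prtn3 and blue for Pf4, and library 6 is blue for most genes, with Prtn3 at 0 in Gata6 ≥1 cells.

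Related genes were read from 6 lists, chosen with earlier results known, to set the members beside others of the same roles. Of 15 other acute phase and antimicrobial genes, 6 were compared, and in the Irf4 split 2 were lower and 1 higher (median -0.42). Hp, haptoglobin, which binds free haemoglobin, was lower (48.8 CPM in Irf4 ≥1 against 202, log2 -2.05), and Saa1, another serum amyloid A, had 0 UMIs in Irf4 ≥1 cells and 9.09 CPM in the others. Saa1 was also 2.12 higher on the log2 scale in Tnf ≥2 cells. Lyz1, a lysozyme, was higher in Irf4 ≥1 cells (3615 against 1329 CPM, 1.44), whereas Lyz2 was at -0.63. Of 8 neutrophil granule proteases, 1 was compared, Mmp9, at -0.03.

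Among 14 protease inhibitors with Slpi's role, 10 were compared, and 3 were higher and 2 lower in Irf4 ≥1 cells (median 0.12). Serpinb2, a serpin at 2140 CPM in macrophages, was at -1.59, while Timp1, an inhibitor of matrix metalloproteases, was at 1.19, Serpinb9 at 1.66 and Spint1 at 2.27. Of 24 matrix glycoproteins and proteoglycans other than the members, 8 were compared, and 3 were lower and 0 higher in Irf4 ≥1 cells: Ltbp1 (-2.08), which binds latent TGF-β, Lamc1 (-1.33), a laminin chain, and Emilin2 (-1.02). Thbs1, thrombospondin 1, at 10571 CPM in macrophages, was at -0.95.

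Matrix proteases were higher in Irf4 ≥1 cells or showed no 2-fold difference. Of 12, 8 were compared, and 3 were higher and 0 lower: Mmp19 (1367 against 128 CPM, log2 3.41), Mmp12 (2.66), the macrophage elastase, and Mmp13 (2.60), a collagenase. In the Gata6 split, Mmp19 was at -3.26 and Mmp12 at -2.50. Of 19 receptors and partners of the members, 16 were compared, and 5 were lower in Irf4 ≥1 cells and 0 higher. Fpr1, a formyl peptide receptor, was at -2.62, Itga9, an integrin chain that binds matrix proteins, at -2.52, Tlr2 at -1.30, Tgm2, a transglutaminase that crosslinks fibronectin, at -1.24, and Itgb1, the β chain of fibronectin receptors, at -1.13.

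Genes of most like pattern were sought among 7366 genes over 30 profiles, which are the exclusive macrophage classes and B cells of the 6 libraries, by Pearson's r of log2(CPM + 1). Profiles of a library share its handling and depth, and the step between macrophages and B cells raises all values of r. Saa3 was most like Sod2 (0.973) and Prg4 (0.972), and Slpi like Saa3 (0.965) and Prg4 (0.964). Prg4 was most like the complement gene C4b (0.984) and F5 (0.981), which encodes coagulation factor V. Pf4 was most like Thbs1 (0.976) and Anxa3 (0.974). Fn1 was most like Cd14 (0.995) and Lyz2 (0.992), and Ecm1 like Cst3 (0.985) and Wfdc17 (0.984). The sparse members had lower values, Vcan with Apobr (0.879) and Pde4d (0.869), Emilin1 with Akap7 (0.888) and Ptgfrn (0.885), Prtn3 with Cfb (0.863) and H2-K1 (0.854), and Lcn2 with Appbp2 (0.709) and Cdc42bpb (0.704). Over the 24 macrophage profiles alone, which leave the B cell step out, Saa3 was again most like Sod2 (0.952), Fn1 like F5 (0.967) and Prg4 (0.953), Prg4 like Cd14 (0.954) and Fn1, and Pf4 like Tle1 (0.884).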

How the data were processed

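Single-cell libraries were made with the 10x 5′ kit, 1 per condition. The authors aligned reads to a joined human and mouse genome (hg38 and mm10) with Cell Ranger (version 2.2 in the submitters' processing notes) and deposited raw UMI counts of mouse genes without normalization. The annotation is not given in the sources used here, and no deposited column tied barcode numbers to conditions.

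Of 7760 barcodes, 7665 passed a filter that asked for 500 genes or more, log(genes)/log(UMIs) of 0.8 or more and no more than 10% of counts from mitochondria. Counts of a class were summed and divided by its UMIs (CPM), and a count of 0 allows 3 UMIs. For shares, cells were thinned to 1500 UMIs, leaving out shallower ones (83 of 2773 macrophages). Ratios had exact conditional intervals. Scrublet (scanpy 1.11.5, rate 0.01) called 68 barcodes (0.876%), 11 of them macrophages, and these were kept. Python 3.11.15, numpy 2.4.6, scipy 1.17.1, pandas 2.3.3 and matplotlib 3.10.9 were used. The ratio code was tested on simulated data. With 1 library per condition, no p-value was computed.

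Members and lists were chosen with earlier results of these data known. Named beside the members are, per list, up to 3 genes with most macrophage UMIs or with the largest ratio in a split, and the 2 genes of most like pattern. Alternatives were other cell filters, gates, depths, folds and scalings, and leaving out each library (for levels, chosen after seeing the data). Some items that this rule names are not reported here.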

Additional observations from a re-analysis of the deposited data

How the results depend on the processing

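Of 71 counts of members past the fold under an alternative, 68 lay within 1.5 times the reported one. The exceptions were the Gata6 comparison, with 3 members without library 4 and 4 at a fold of 1.5, against 1, and the Tnf comparison, with 1 at a fold of 1.5 against 0. The cause was not tested, but a lower fold admits more genes by construction. Leaving out 1 library at a time gave 1 to 3 members for Gata6, 0 for Tnf, 6 to 7 for Irf4 (with Vcan in place of Fn1 without library 3) and 9 for macrophages over B cells. Scaling to UMIs outside the 10 members, chosen after seeing the data, left the counts at 1, 0, 7 and 9. Of 655 single-gene ratios, 213 lay outside the reported counting interval and 16 had another sign, all in the Gata6 and Tnf comparisons. Conditions could not be paired, because each has 1 library and the barcode numbers are not tied to samples. Cell classes were also compared within each library, without a test. Depth limits Vcan, Emilin1, Prtn3 and above all Lcn2.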

Other observations

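Cells at the edge of the macrophage gate also carried the members. The 214 cells with a single UMI of Csf1r, Adgre1 and Fcer1g, just outside the gate, had 2132 CPM of Saa3 and 5144 of Fn1, and the 272 cells with 2, just inside it, had 3066 and 6366. The 776 cells with none that met the gate's limits on B and T cell genes had 145 CPM of Saa3 and 422 of Fn1.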
